A study of Mus musculus with 4 samples.

Results

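Of the 3117 genes in the deposited tables, 59 carry the symbols of DNA replication and DNA repair factors. They were taken by a pattern on the gene symbol (MCM, ORC, GINS, POLA to POLQ, RFC, RPA, PCNA, FEN1, LIG, MSH, PMS, BRCA, FANC, RAD, XRCC, ERCC, XPC, PARP, CHEK, PRKDC, BLM, NSMCE and SMC6 are among the families and genes it met), a rule that uses no measured value. All 59 are listed at the transcription start site (TSS) and 57 at the transcription end site (TES); Rfc4 and Msh4 are listed at the TSS only. By their known roles 23 are replication genes and 33 are repair genes. The other 3 were kept in neither class: Msh4, a meiotic recombination factor, Parp16, a mono-ADP-ribosyltransferase of the endoplasmic reticulum, and Ercc6l2, a relative of Ercc6. Each of the 59 symbols, read in any case, belongs to 1 gene of the GENCODE M21 annotation (GRCm38).

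The samples were B16F10 cells, an established mouse melanoma line, parental (control, genotype given as WT) or with Carm1 knocked out (Carm1 KO). Carm1 is an arginine methyltransferase and transcriptional coactivator. By mammalian native elongating transcript sequencing, short RNA held by RNA polymerase II was recovered from nuclease-digested chromatin with an antibody against the Ser2-phosphorylated carboxy-terminal domain (Ser2P), the form of elongating polymerase, or against the domain itself (clone 8WG16). There are 4 libraries, 1 per antibody and condition, each from 3 sets of cells pooled after the nuclease step, and whether the knockout is 1 clone is not given in the sources used here. No spread between replicates can therefore be measured, every difference below has no replicate check, and no p-value is given.

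Each gene has 1 Ser2P ratio per condition at each end. It is treated as Ser2P signal over a divisor that no source used here names, on a linear scale. It is not an expression level. Depth is unknown, as the tables hold no counts. The change of a gene is log2(Carm1 KO / control) with no pseudocount, and a gene is called higher or lower past 1.5-fold (0.58 on the log2 scale). The median gene of the whole table was higher in Carm1 KO by 1.17 at the TSS and 0.85 at the TES on the log2 scale, so each group is also given centred, with that median subtracted. In each column most ratios are simple fractions of 1 value, the most frequent TES ratio of that column: between 94.5% and 98.7% of the ratios above 0 are, against at most 0.0685% for the other condition's value. This value is called the step here. It was 2.61 times higher in Carm1 KO (2.68) than in control (1.03), 1.38 on the log2 scale, and a step scale, in which every ratio is divided by its column's step, is therefore given too. On the step scale the median of all genes was -0.22 at the TSS and -0.53 at the TES, so directions flip between scales and each is named with its scale. Carm1 itself was not analysed here, and the melanocyte markers could not check the cell type, since the ratio is no level; 7 of 10 markers are listed at the TSS and 5 of 10 at the TES.

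DNA replication starts when the origin recognition complex loads the MCM helicase onto origins before S phase. GINS, Mcm10 and other factors turn the loaded helicase into a moving fork, where polymerases alpha, delta and epsilon copy the strands, held by the PCNA clamp that the RFC loader places. Repair runs in parallel pathways. Mismatch repair corrects copying errors, nucleotide excision repair removes bulky and ultraviolet-induced lesions, which in skin pigment cells is the repair of sunlight damage, and double-strand breaks are joined end to end or copied from a sister strand by homologous recombination. Many replication genes are switched on together by E2F transcription factors as cells enter S phase.

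Promoters are shown for the members with the highest and lowest TSS change of each class, where one was available: Pold3, Orc1 and Msh6. They come from RefSeq (GRCm38.p6), run 5′ to 3′ on the gene's strand from 250 bases before to 50 bases after the gene's start, and carry an E2F-type site in capitals, at base 268 of the Pold3 window, base 224 of Orc1 and base 266 of Msh6, counted from 1 at the 5′ end. Pold3 (chr7:100121453-100121752, minus strand) and Orc1 (chr4:108579204-108579503, plus strand) had the highest and lowest TSS change of the replication class. Msh6 (chr17:87974800-87975099, plus strand) had the highest of the repair class, and Xpc, for which no promoter was available, the lowest.
Pold3: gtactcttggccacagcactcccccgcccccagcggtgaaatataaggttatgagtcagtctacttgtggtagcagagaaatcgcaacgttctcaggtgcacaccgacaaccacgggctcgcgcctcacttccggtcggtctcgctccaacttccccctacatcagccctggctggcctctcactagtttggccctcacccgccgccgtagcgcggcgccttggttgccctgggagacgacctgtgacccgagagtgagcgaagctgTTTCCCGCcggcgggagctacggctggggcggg
Orc1: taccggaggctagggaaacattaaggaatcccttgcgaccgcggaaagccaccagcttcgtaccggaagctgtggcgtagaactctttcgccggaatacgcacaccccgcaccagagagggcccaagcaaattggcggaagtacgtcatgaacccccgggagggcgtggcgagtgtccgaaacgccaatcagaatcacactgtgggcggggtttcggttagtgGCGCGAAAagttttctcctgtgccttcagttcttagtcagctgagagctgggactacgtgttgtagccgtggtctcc
Msh6: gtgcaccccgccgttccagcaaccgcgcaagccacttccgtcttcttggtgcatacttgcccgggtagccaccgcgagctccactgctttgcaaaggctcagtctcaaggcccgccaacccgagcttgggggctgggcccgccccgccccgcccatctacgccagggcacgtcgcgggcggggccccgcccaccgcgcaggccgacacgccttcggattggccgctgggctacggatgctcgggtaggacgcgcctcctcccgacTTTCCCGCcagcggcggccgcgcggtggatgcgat

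The capitals read TTTCCCGC in Pold3 and Msh6 and GCGCGAAA, the reverse complement of TTTCGCGC, in Orc1. The search took TTTGGCGC, TTTCGCGC, TTTCCCGC and TTTGCCGC on both strands, with overlaps counted once per promoter. Promoters were available for 48 of the 59 members, 21 of them replication and 24 repair genes. Such a site was found in 11 of 21 replication promoters (52.4%): Gins3, Mcm3, Mcm5, Mcm6, Mcm7, Orc1, Pola1, Pold1, Pold3, Pole2 and Pole4. The RefSeq start used for Pole4 lies 52491 bp from the GENCODE start. Those of Fancc, Nsmce4a, Parp16 and Msh4, without such a site, lie 65533, 25737, 19337 and 1247 bp away. In the repair class 3 of 24 promoters held one (12.5%), those of Brca2, Msh6 and Mcm8. Among genes with a ratio, 168 of 2500 promoters did (6.72%), and among all promoters of the reference 744 of 32851 (2.27%). The letters CCAAT, on either strand, were in 61.9% of replication and 50% of repair promoters, against 41.8% of the tables' genes and 37.4% of all promoters. A match is a string of letters in a window and shows no binding. The promoters with and without an E2F-type site held members of both directions: Pold3, Msh6, Brca2 and Mcm5 stood among the highest TSS changes, Orc1 and Mcm8 among the lowest. Over both classes the median TSS change as deposited was 1.42 in 13 genes with a site and 0.62 in 29 without, and at the TES 0.83 (n = 14) and 0.67 (n = 29).

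**Figure D1:**
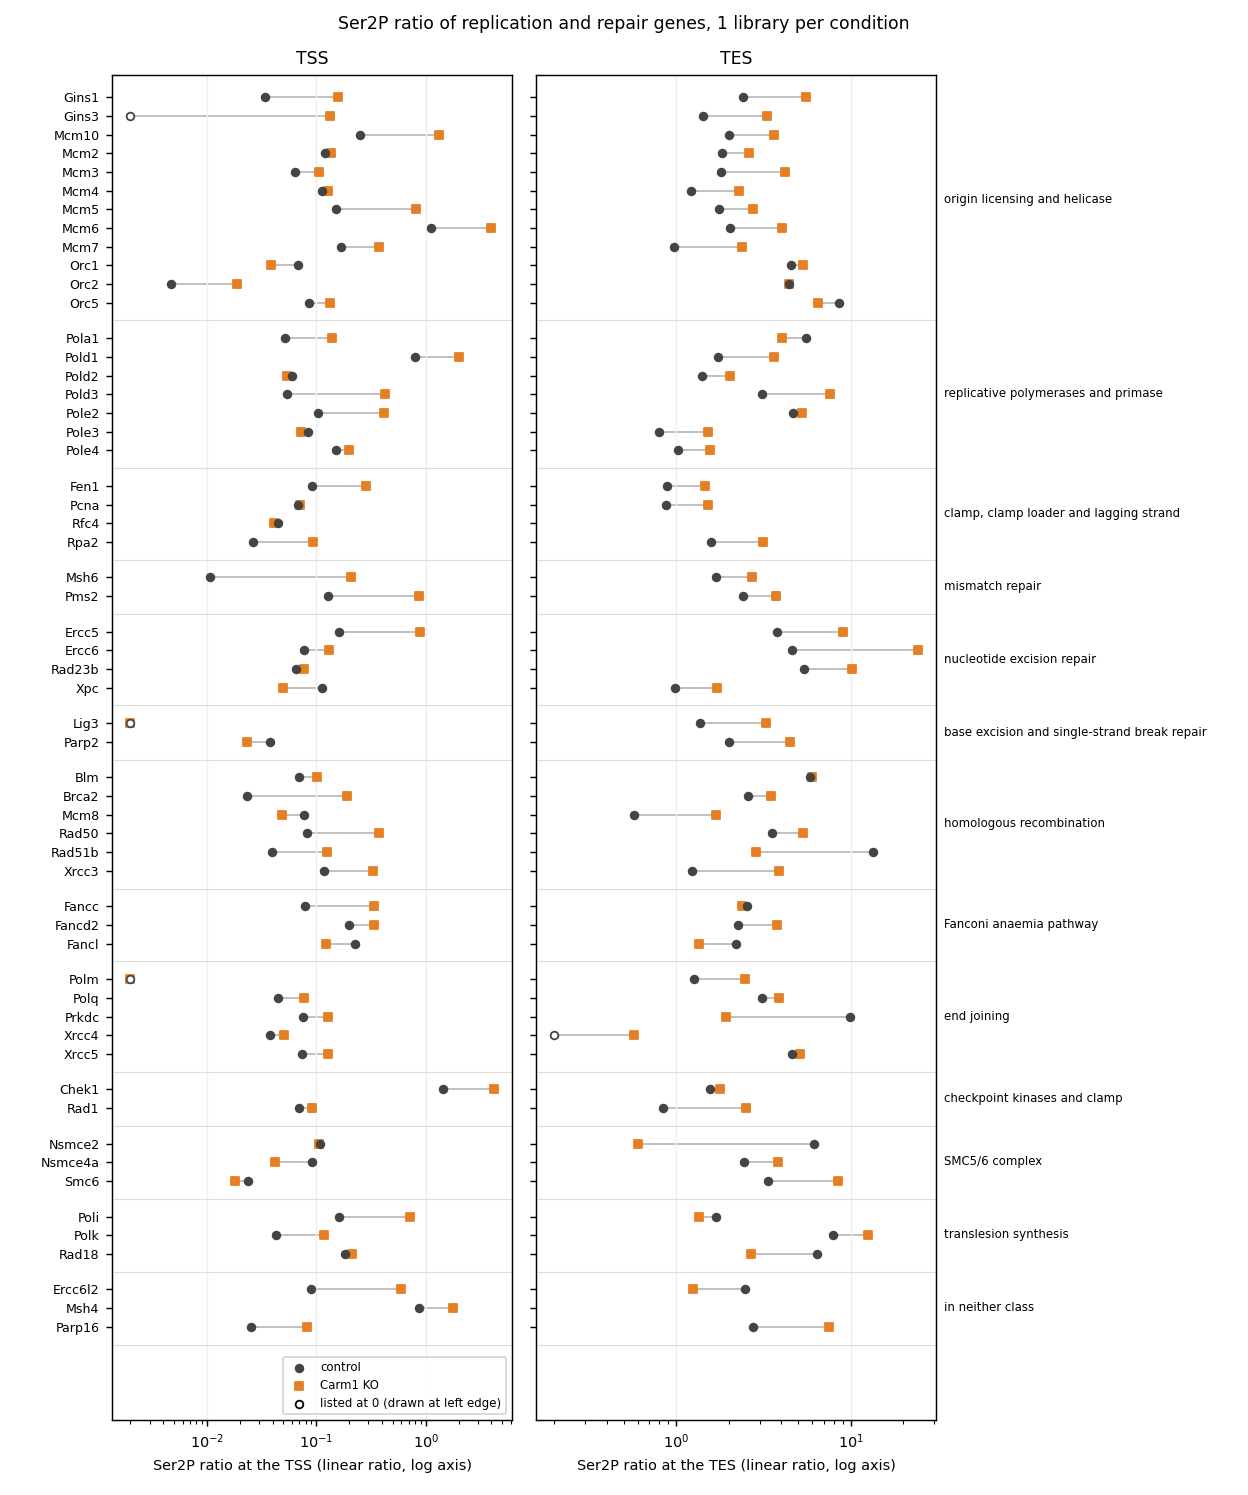
Ser2P ratio of 56 members at the TSS (left) and the TES (right) in control (circles) and Carm1 KO (squares), 1 library each, on log axes and grouped by role. Ratios at the TES lie far above those at the TSS for most members; the widest TES gaps to lower values in Carm1 KO are those of Nsmce2, Prkdc and Rad51b, and the widest to higher values that of Ercc6.

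As deposited, the replication genes were higher in Carm1 KO at the TSS in 14 of 22 compared and lower in 1, with a median change of 1.24. The repair genes were higher in 19 of 31 and lower in 5, median 0.78. Over all 2859 genes compared, 71.2% were higher and 5.6% lower. Centred, 8 replication genes were higher and 8 lower (median 0.08), and 7 repair genes higher and 12 lower (median -0.38), against 28.6% higher and 28.8% lower of all genes. On the step scale the replication counts were 6 and 10 (median -0.14) and the repair counts 7 and 17 (median -0.60), against 22.3% and 36.2% of all genes. So the sign of the class medians depends on the scale, while the spread within each class does not: it ran from -0.82 to 3.0 in the replication genes and from -1.18 to 4.28 in the repair genes as deposited.

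At the TES 15 of 22 replication genes were higher as deposited and 0 lower, with a median of 0.83, and 19 of 32 repair genes were higher and 5 lower, with a median of 0.66. Of all 3016 genes compared there, 66.7% were higher and 7.13% lower. Centred, 0 replication genes were higher and 5 lower, and 4 repair genes higher and 10 lower, against 11.6% and 22% of all genes; the medians were -0.02 and -0.19. On the step scale 0 replication genes were higher and 11 lower, and 1 repair gene (Ercc6) higher and 20 lower, against 2.62% and 46.4%. The replication genes lay close together, between -0.46 and 1.30, and the repair genes reached from -3.35 to 2.39.

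The median change of the replication class exceeded that of the repair class by 0.46 at the TSS and 0.17 at the TES, a difference that a scale common to a library leaves as it is. It was not stable to other choices. At the TSS it became 0.04 with low values left out, -0.10 when genes whose ratio another gene shares exactly were left out, which leaves 8 and 5 genes, and -0.02 without the genes that follow closely behind another gene on the same strand. At the TES it became 0.0027 with the pseudocount of 0.796 and -0.23 when the median of genes of like length was subtracted.

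Of the 6 subunits of the replicative helicase, Mcm2 to Mcm7, all had higher ratios in Carm1 KO as deposited at both ends. Of all genes 85.8% did at the TSS and 84.3% at the TES. The 6 subunits differed widely at the TSS. Mcm6 (chromosome 1, 128331590 to 128359664) had the highest TSS ratio of the helicase, 1.13 in control and 3.97 in Carm1 KO, a 3.53-fold difference. Mcm5 went from 0.152 to 0.818 (5.38-fold), Mcm7 from 0.169 to 0.374 (2.21-fold) and Mcm3 from 0.0636 to 0.105 (1.65-fold). Mcm2 (0.120 and 0.137) and Mcm4 (0.113 and 0.128) lay within 1.5-fold. These proteins form 1 ring in equal numbers, and their TSS changes ran from 0.18 to 2.43 on the log2 scale. Centred, 2 were higher, 2 lower and 2 between, against 28.6% higher and 28.8% lower of all genes. On the step scale 1 was higher and 3 lower, against 22.3% and 36.2% of all genes. At the TES they lay close together: the control ratios ran from 0.975 (Mcm7) to 2.03 (Mcm6) and the Carm1 KO ratios from 2.28 (Mcm4) to 4.19 (Mcm3). There 5 of 6 passed 1.5-fold as deposited, against 66.7% of all genes, with Mcm2 the exception at 1.42-fold. Centred, 0 were higher and 0 lower, against 11.6% and 22% of all genes. On the step scale 0 were higher and 2 lower, against 2.62% and 46.4%.

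The origin recognition subunits, which mark where helicases are loaded, showed mixed changes. Orc1 was the only replication gene called lower at the TSS as deposited, 0.0675 in control and 0.0383 in Carm1 KO (-0.82). Orc2 had the lowest control TSS ratio of all members above 0, 0.00474, and 0.0189 in Carm1 KO (2.0); with the pseudocount of 0.0238 its change was 0.58. Orc5 went from 0.0864 to 0.132 (0.62), which turns to -0.55 when centred. At the TES all 3 had high ratios and small changes: 4.56 and 5.29 for Orc1, 4.40 and 4.44 for Orc2, and 8.50 and 6.51 for Orc5. Centred, their TES changes were -0.63, -0.84 and -1.23.

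The helicase activators resembled each other. Mcm10, which helps the loaded helicase begin unwinding, went from 0.250 to 1.33 at the TSS (2.41) and from 2.0 to 3.63 at the TES (0.86). Gins1, a subunit of the GINS complex that binds the helicase, went from 0.0339 to 0.158 (2.22) and from 2.42 to 5.54 (1.19). Gins3 is listed at 0 at the TSS in control and at 0.134 in Carm1 KO, so it has no fold there; at the TES it went from 1.42 to 3.30 (1.21). The 2.41 and 2.22 of Mcm10 and Gins1 at the TSS stay above 0 when centred and on the step scale, and their TES changes turn below 0 on the step scale.

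Among the replicative polymerases, the delta accessory subunit Pold3 had the largest TSS change of the replication class, from 0.0535 to 0.427 (7.98-fold). Its TES change was also the largest, from 3.08 to 7.59 (2.46-fold), with Mcm7 close at 2.44-fold. The control TES value of Pold3 is exactly 3 steps and is shared with 20 other genes. The delta catalytic subunit Pold1 went from 0.802 to 2.03 at the TSS and from 1.73 to 3.64 at the TES. The small delta subunit Pold2 stayed within 1.5-fold at the TSS, 0.0598 and 0.0537. Thus 3 subunits of 1 enzyme had TSS changes of 3.0, 1.34 and -0.15. For polymerase epsilon, Pole2, its second subunit, went from 0.104 to 0.417 at the TSS, while the histone-fold subunits Pole3 (0.0838 and 0.0719) and Pole4 (0.151 and 0.20) stayed within 1.5-fold. The order was turned at the TES, where Pole2 (4.66 and 5.26) moved least and Pole3 (0.799 and 1.52) most. Pola1, the catalytic subunit of the priming polymerase alpha, was higher at the TSS (0.0523 and 0.140) and below its control at the TES (5.53 and 4.03).

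At the clamp and on the lagging strand, Fen1, the flap nuclease that trims Okazaki fragments, went from 0.0918 to 0.286 at the TSS, and Rpa2, a subunit of the single-strand binding protein, from 0.0265 to 0.0926. Pcna itself (0.0686 and 0.0711) and the clamp loader subunit Rfc4 (0.0447 and 0.0413) stayed within 1.5-fold at the TSS. At the TES Fen1, Pcna and Rpa2 were 1.65-fold, 1.73-fold and 2.0-fold higher as deposited; all 3 lie within 0.15 of the median gene when centred and below 0 on the step scale.

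Of the mismatch repair genes, Msh6 (chromosome 17, 87975062 to 87990892), which recognises single mispairs, had the largest TSS change of all members, from 0.0107 to 0.206 (19.4-fold), and ranked 25 from the highest of 2859 genes. With the pseudocount its log2 change was 2.74 in place of 4.28. Its Carm1 KO TSS value is shared with 8 other genes, so it is coarse. Pms2, which acts in the nicking step that follows recognition, went from 0.129 to 0.863 (6.71-fold). Both TSS changes remain above 0 when centred and on the step scale. At the TES Msh6 was 1.61-fold higher (1.69 and 2.71) and Pms2 1.54-fold (2.42 and 3.73) as deposited, and both were below 0 when centred and on the step scale.

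In nucleotide excision repair 3 of 5 genes were called higher and 1 lower at the TSS as deposited, against 71.2% and 5.6% of all genes. Xpc (chromosome 6, 91489305 to 91515888), the damage sensor, had the lowest TSS change of all members, 0.113 in control and 0.0497 in Carm1 KO (-1.18), and ranked 52 from the lowest of all genes. Its TES ratio was higher, 0.985 and 1.70. Rad23b, which stabilises Xpc, was higher at the TES (5.39 and 10.2) and within 1.5-fold at the TSS (0.0647 and 0.0774). The nuclease Ercc5, which cuts on the 3′ side of the lesion, was 5.50-fold higher at the TSS (0.163 and 0.895) and 2.37-fold at the TES (3.79 and 8.98). Ercc6 (chromosome 14, 32513521 to 32580990), the factor that detects polymerase stalled at lesions, had the largest upward TES change of the members, from 4.59 to 24.2 (5.26-fold), and ranked 36 from the highest of 3016. All 5 genes of this pathway were higher at the TES as deposited, against 66.7% of all genes; centred 1 and on the step scale 1 was, Ercc6 both times, and 1 was lower on the step scale, Xpc. The Carm1 KO value of Ercc6 is exactly 9 steps and is shared with 2 other genes, so it is coarse.

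Parp2, which senses single-strand breaks, had a lower TSS ratio in Carm1 KO (0.0376 and 0.0231) and a higher TES ratio (2.0 and 4.50). Lig3, the ligase that seals such breaks, is listed at 0 at the TSS in both conditions and went from 1.37 to 3.24 at the TES.

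Homologous recombination held some of the widest contrasts. Brca2, a mediator of strand exchange, went from 0.0230 to 0.192 at the TSS (8.33-fold) and was within 1.5-fold at the TES (2.57 and 3.48). Its Carm1 KO TSS value is shared with 20 other genes. Xrcc3 was higher at both ends (0.118 and 0.327; 1.23 and 3.85) and Rad51b (chromosome 12, 79297282 to 79814690) differed in direction between them: 0.0390 and 0.125 at the TSS, but 13.4 and 2.88 at the TES, 4.65-fold lower. Rad50, of the complex that senses broken ends, was 4.57-fold higher at the TSS and 1.51-fold at the TES. Mcm8, a helicase of recombination that is not part of the replicative ring, showed the opposite order, 0.0778 and 0.0485 at the TSS but 0.575 and 1.68 at the TES. Blm, another helicase of this pathway, was within 1.5-fold at both ends. Centred, 2 of the 7 were higher and 2 lower at each end, beside TSS shares of 28.6% and 28.8% and TES shares of 11.6% and 22% over all genes.

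In the Fanconi anaemia pathway, which unhooks DNA crosslinks, the ligase Fancl and its substrate Fancd2 had opposite directions as deposited only. Fancl was the only member called lower at both ends as deposited, 0.226 and 0.122 at the start (TSS), 2.20 and 1.34 at the end (TES); in all genes 0.613% were. Fancd2 was higher at both (0.20 and 0.336; 2.27 and 3.77), which turns below 0 at both ends when centred. Fancc was 4.24-fold higher at the TSS and within 1.5-fold at the TES (2.52 and 2.39). Its TSS values are shared with 14 (control) and 21 (Carm1 KO) other genes. The Carm1 KO TSS values of Fancd2 and Fancl are shared with 21 and 16 other genes.

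Of the end-joining genes compared at the TSS, 3 of 4 were called higher as deposited, against 71.2% of all genes. Prkdc, Xrcc5 (the large Ku subunit) and Polq went from 0.0757 to 0.127, from 0.0737 to 0.127 and from 0.0442 to 0.0774, each between 1.68-fold and 1.75-fold, and lie below 0 when centred. At the TES Prkdc (chromosome 16, 15637866 to 15842235), the catalytic subunit of DNA-PK that Ku recruits, went from 9.94 to 1.92, 5.18-fold lower, while Xrcc5 stayed within 1.5-fold (4.58 and 5.12). Xrcc4, the scaffold of the ligase, was within 1.5-fold at the TSS (0.0374 and 0.0506) and is listed at 0 at the TES in control and at 0.575 in Carm1 KO. Polm is listed at 0 at the TSS in both conditions and went from 1.26 to 2.46 at the TES.

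The SMC5/6 complex is a cohesin relative that keeps replicating chromosomes intact. It was the only role with 3 members or more in which every TSS change lay below 0 as deposited. Centring and the step scale only lower a TSS change, so they keep that sign. Of all genes 85.8% lay above 0 there. As deposited 1 of 3 was called lower, against 5.6% of all genes, and Nsmce2 lay at -0.03. The values were 0.0909 and 0.0419 for Nsmce4a, 0.0238 and 0.0181 for Smc6, and 0.109 and 0.107 for Nsmce2. At the TES Nsmce2 (chromosome 15, 59374247 to 59601684), the SUMO ligase of the complex, had the lowest change of all 3016 genes, 6.17 in control and 0.604 in Carm1 KO, 10.2-fold lower. Smc6 (3.34 and 8.42) and Nsmce4a (2.44 and 3.83) were higher there as deposited and below 0 on the step scale. The control value of Nsmce2 is exactly 6 steps and is shared with 4 other genes.

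Of the checkpoint genes, Chek1, the kinase that slows S phase on damage, had the highest TSS ratio of all members in Carm1 KO, 4.22 against 1.44 in control, and little change at the TES (1.56 and 1.79). Rad1, of the clamp that activates the checkpoint, had the reverse, little change at the TSS (0.0691 and 0.0910) and a 3.0-fold higher TES ratio (0.839 and 2.51). Among the translesion genes, which copy past damaged bases, Poli and Polk were 4.49-fold and 2.72-fold higher at the TSS; at the TES Poli was at 1.70 and 1.34 and Polk at 7.86 and 12.5. Rad18, the ligase that marks PCNA for them, was within 1.5-fold at the TSS (0.184 and 0.212) and 2.38-fold lower at the TES (6.39 and 2.68). The Carm1 KO values of Rad18, Poli and Fancl at the TES are exactly 1, 0.5 and 0.5 steps and are shared with 23, 14 and 14 other genes.

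Of the genes in neither class, Msh4 went from 0.872 to 1.77 at the TSS. Parp16 was higher at both ends as deposited, with TSS ratios of 0.0251 and 0.0824 and TES ratios of 2.76 and 7.53. Ercc6l2 was 6.66-fold higher at the TSS (0.0899 and 0.599) and 1.99-fold lower at the TES (2.47 and 1.24).

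Comparing both ends of a gene within a library removes any factor common to that library. Among the 53 members above 0 in all 4 values, the TES ratio exceeded the TSS ratio in 53 in control and 52 in Carm1 KO. The exception was Chek1 at 0.424. Most genes shared this: of all 2775 such genes, 2692 did in control and 2604 in Carm1 KO. In the members the median of TES over TSS was 28.3 in control and 18.1 in Carm1 KO, against 19.5 and 15.7 over the 2775 genes. The replication genes went from 15.3 to 18.9 (n = 21) and the repair genes from 38.7 to 16.6 (n = 30). The medians of the classes do not track the change of single genes. Taken gene by gene, the median log2 change of TES over TSS was -0.81 in replication genes, -0.49 in repair genes and -0.40 in all genes. Below 0 were 12 of 21 replication genes (57.1%) and 20 of 30 repair genes (66.7%), against 63.4% of all genes. By size, 7 of 21 replication and 12 of 30 repair genes (40%) shifted at least 2-fold toward the start in Carm1 KO, against 31.7% of all genes. Toward the end 2 and 7 (23.3%) did, against 12.1%. With the median of genes of like length subtracted, 8 repair genes shifted toward the start and 10 toward the end, so this balance turned.

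Of the classes, only repair held shifts of at least 4-fold, a limit added after the data were seen. In the replication class Orc2 (-1.98), Pola1 (-1.88), Pole2 (-1.83), Mcm5 (-1.78) and Pold3 (-1.70) lay just short of it, toward the start. At least 4-fold toward the start were 8 of 30 repair genes (26.7%), 0 of 21 replication genes and 13.4% of all genes. These were Rad51b (-3.90 on the log2 scale), Msh6 (-3.59), Nsmce2 (-3.32), Prkdc (-3.12), Brca2 (-2.62), Poli (-2.50), Fancc (-2.17) and Pms2 (-2.12), and Ercc6l2, in neither class, joined them at -3.73. Toward the end the largest were Mcm8 (2.22), Xpc (1.97), Parp2 (1.87), Nsmce4a (1.77), Smc6 (1.72) and Ercc6 (1.62). The shifts toward the start came about in different ways. Msh6, Brca2 and Pms2 had a high TSS change, and Nsmce2, Prkdc and Rad51b a low TES change. As deposited Rad51b also had a TSS change of 1.68, but centred it was 0.51, against -3.07 at the TES. By direction as deposited, 10 of 21 replication and 10 of 30 repair genes were higher at both ends, against 49.2% of all genes. Lower at the TSS and higher at the TES were 4 repair genes (Xpc, Parp2, Mcm8 and Nsmce4a), 13.3% against 3.42% of all genes. Rad51b, Prkdc and Ercc6l2 were higher at the TSS and lower at the TES, 5.66% of the members against 4.58% of all genes.

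**Figure D2:**
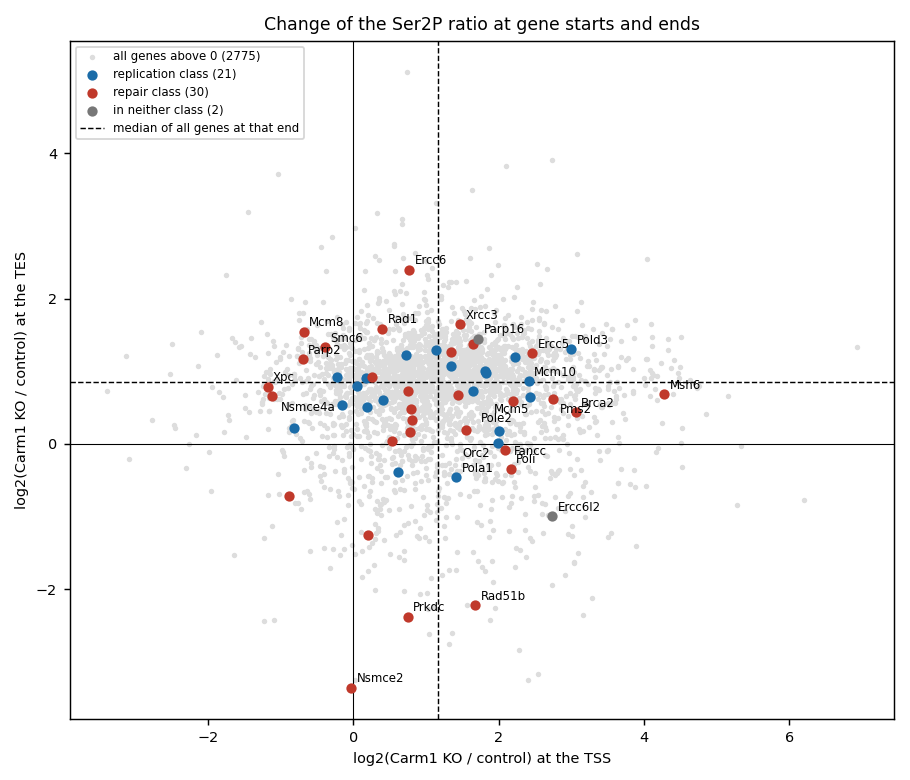
log2(Carm1 KO / control) at the TSS (horizontal) against the TES (vertical) for all 2775 genes above 0 (grey) and for replication (blue) and repair (red) genes, with dashed lines at the medians of all genes, 1.17 and 0.85. Replication genes stay between -0.46 and 1.30 on the vertical axis, while repair genes spread to Nsmce2, Prkdc and Rad51b at the bottom, and as deposited most points lie above 0 on both axes.

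Gene length went with the TES change. At 60 kb or longer are 13 of 33 repair genes, 3 of 23 replication genes and 15.2% of all genes, with median lengths of 43564, 17345 and 18137 bp. At the TES 9 of the 16 long members compared had a lower ratio in Carm1 KO as deposited, against 1 of 40 shorter members, Poli. All genes showed the same split, 51.1% of 444 long genes and 9.53% of 2528 shorter ones. The median TES change of long members was -0.23 and of shorter members 0.92, against -0.04 and 0.92 over all genes. Among shorter genes the class medians were 0.91 in replication (n = 19) and 0.94 in repair genes (n = 20). The length of Prkdc is 204370 bp, of Nsmce2 227438 bp, of Rad51b 517409 bp and of Pola1, the longest replication gene, 327389 bp. Among the long members 4 were called higher at the TES as deposited: Ercc6 (67470 bp), Fancd2, Polk and Pole4. As a description over genes that share the same libraries, Spearman's rho of length and TES change was -0.53 in 56 members and -0.34 in 2972 genes, and of length and TSS change 0.01 in 54 members. RefSeq lengths gave the same counts, 9 of 16 and 1 of 40. What part length has in the difference between classes was not tested beyond the subtraction above, which turned its sign at the TES.

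**Figure D3:**
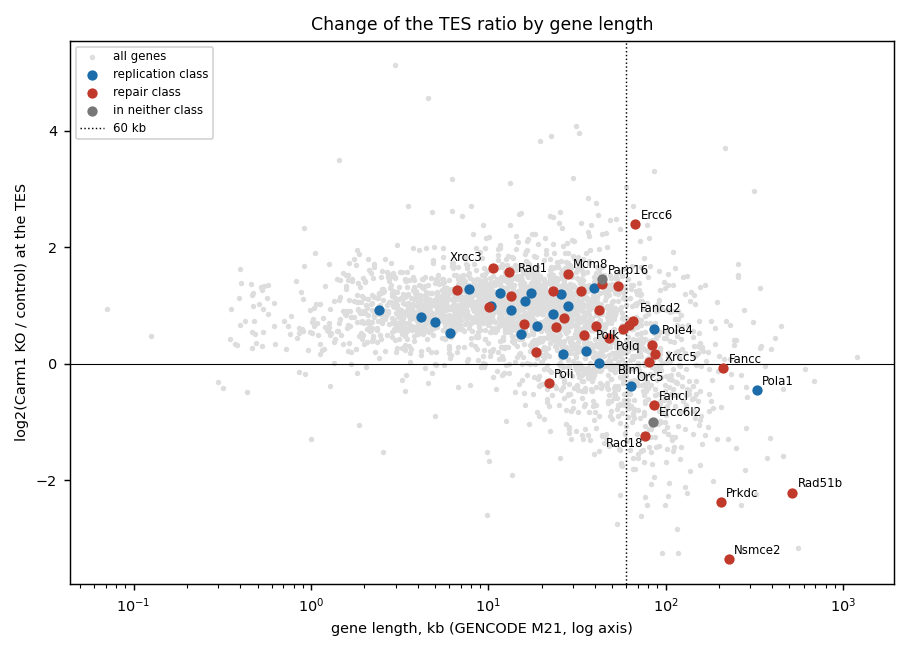
log2(Carm1 KO / control) at the TES, as deposited, against gene length in kb (log axis) for all genes (grey), replication genes (blue) and repair genes (red), with a dotted line at 60 kb. Of the long members 9 of 16 lie below 0, led by Nsmce2, Prkdc and Rad51b, and of the shorter members 1 of 40 does.

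High TSS ratios went with a neighbour. A gene on the same strand ends within 5 kb before the TSS of 8 members, among them Pold1 (767 bp after the end of Nr1h2), Msh4 (1149 bp after Rabggtb), Chek1 (2279 bp after Stt3a), Ercc5 (2974 bp after Bivm), Mcm6 (4043 bp after Dars), Fen1 (4103 bp after Myrf) and Xrcc5 (4317 bp after Tmem169). Their median control TSS ratio was 0.722, against 0.0697 in the other 51. Over all genes the medians were 0.514 (n = 530) and 0.0697 (n = 2536). Of the 6 members with a control TSS ratio above 0.5, 5 have such a neighbour. All 8 were higher at the TSS as deposited, as were 473 of the 518 genes of the table with such a neighbour that were compared; centred, 6 of the 8 changes stay above 0. Whether polymerase from the gene before enters these windows was not tested, and how the counting treated strand is not given in the sources used here.

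**Figure D4:**
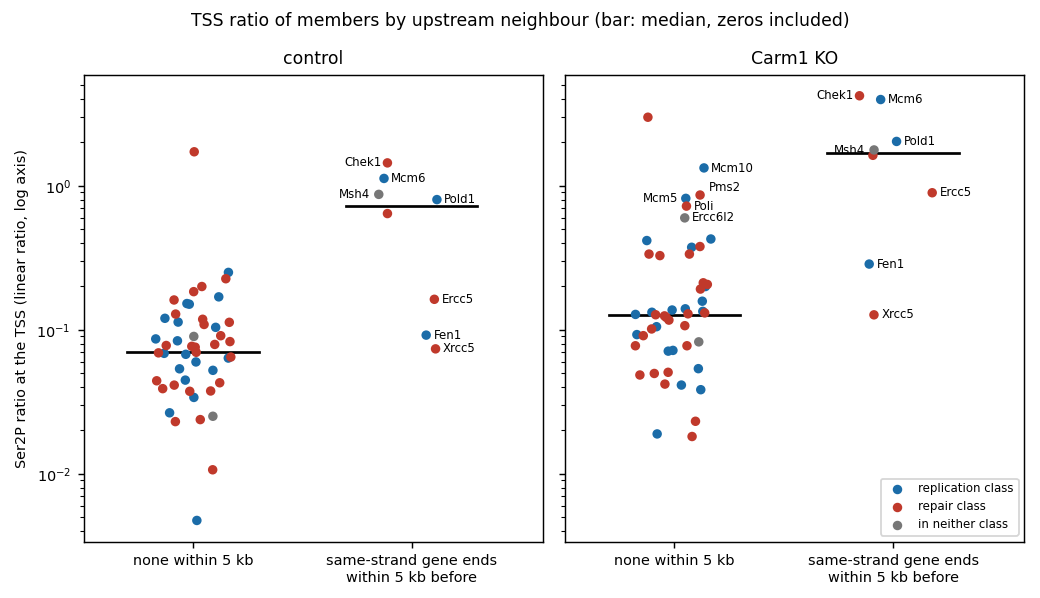
TSS ratio (log axis) of members without and with a same-strand gene ending within 5 kb before them, in control (left) and Carm1 KO (right); bars are medians and ratios listed at 0 are not drawn. In control 5 of the 8 members with such a neighbour lie above 0.5, against 1 of the 51 others.

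With overlapping starts and noncoding genes counted too, 27 of 59 members (45.8%) have an opposite-strand gene starting within 1 kb, against 39% of all genes. Their median TSS change was 0.53, against 1.38 in the other members, and 1.08 and 1.22 over all genes; centred, the first lies below 0. The pair Mcm4 and Prkdc, 466 bp apart, consists of members on both sides, a helicase subunit and the DNA-PK catalytic subunit. Their TSS changes were 0.18 and 0.75, of which the second passed 1.5-fold, and their TES changes 0.91 and -2.37. Xpc starts 40 bp from Lsm3, a splicing factor gene, and their TSS changes differed in sign as deposited, -1.18 and 0.91. Reads of partners that overlap cannot be told apart without strand.

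Genes of the same pathways with other symbols gave a wider view. Of 37 further replication genes named for this purpose 16 are listed at the TSS; 11 of 15 compared were higher as deposited and 0 lower, with a median of 1.17, and at the TES 11 of 15 were higher and 1 lower, with a median of 0.95. Of all genes 71.2% were higher at the TSS and 66.7% at the TES, and the TSS median of all genes was also 1.17. Centred, 2 were higher and 4 lower at the TSS, 0 and 2 at the TES. Cdt1, which loads the helicase with Cdc6, went from 0.171 to 0.528 at the TSS, and Cdc6 from 0.704 to 1.92. Cdc45, the partner of GINS in the active helicase, was at 0.214 and 0.168 there. Top1, the topoisomerase that relieves supercoils, was the 1 lower at the TES (6.22 and 3.97). Of 63 further repair genes 19 are listed; 11 of 18 were higher and 1 lower at the TSS (median 1.23), and 14 of 19 higher and 0 lower at the TES (median 0.96). The shares of all genes were 71.2% and 5.6% at the first and 66.7% and 7.13% at the second. Centred, 6 were higher and 7 lower at the TSS, 2 and 4 at the TES. Tdp1, which clears topoisomerase adducts, was the lower one at the TSS (0.0816 and 0.0206), and Brcc3, a deubiquitinase of the Brca1 complex, was the highest at the TES (2.08 and 8.05). The difference between the TSS medians of these repair genes and of the 33 repair members, 1.23 and 0.78, was not tested.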

How the data were processed

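Mammalian native elongating transcript libraries were sequenced from control and Carm1 KO B16F10 cells, 1 Ser2P and 1 Pol II library each. The authors deposited 2 tables of Ser2 values, for the TSS (3112 genes) and the TES (3030 genes), 3025 genes in both; the column names, not sample names, give the condition. The authors' values are called fractions per the file headers but exceed 1, so they were used as a linear ratio. Their divisor, windows, strand setting, scaling and gene choice are not given in the sources here. Per the submitters' processing notes, cutadapt 1.18 and TopHat2 2.1.1 were used, with mm10 and GRCm38 as builds. Depth is unknown, so no counting interval is given.

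The log2 change was computed with pandas 2.3.3 on Python 3.11.15 without a pseudocount; genes listed at 0 in either condition got no fold. Calls use 1.5-fold, and the shares of all genes are given beside the counts of the classes and of the larger groups. The scripts were tested on simulated data. Members, classes and gene lists were chosen with earlier results of these data known, as were the alternatives. Any member may be named, though some are not reported here one by one and enter counts and medians only; full values go to the extremes of each class, members called at both ends, members listed at 0 and members of a complex. The step scale, both neighbour filters and the 4-fold limit for a shift were added after the data were seen. The deposited difference column was not used.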

Additional observations from a re-analysis of the deposited data

How the results depend on the processing

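Directions rest on the scale. Of 42 members called at the TSS, 10 change sign when the median of all genes is subtracted and 12 on the step scale; of 41 called at the TES, 11 and 30 do. The class medians turned to -0.38 (repair, TSS), -0.0224 (replication, TES) and -0.19 (repair, TES) when centred, and on the step scale to -0.14 (TSS) and -0.56 (TES) for replication and -0.60 (TSS) and -0.72 (TES) for repair. With the median of genes of like length (10 groups) subtracted, they were -0.37 (repair, TSS) and -0.0864 (replication, TES). The replication minus repair median turned to -0.10 at the TSS with shared values left out, to -0.0247 there without same-strand genes before, and to -0.23 at the TES with length subtracted.

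Counts of replication genes, higher then lower, at the TSS were 8 and 8 centred, 6 and 9 by length, 6 and 10 on the step scale, 5 and 0 with shared values left out and 8 and 0 without opposite-strand starts; 0 were lower at 2-fold, with the pseudocount and with low values left out. Of repair genes there they were 7 and 12, 7 and 11, 7 and 17, 4 and 0, and 12 and 2 in the same order; lower were 2 at 2-fold, 3 with the pseudocount and 2 with low values left out. At the TES replication counts were 0 and 5 centred, 2 and 3 by length and 0 and 11 on the step scale; 6 were higher at 2-fold and 9 without opposite-strand starts. Repair counts there were 4 and 10 centred, 1 and 20 on the step scale, and 8 and 1 without opposite-strand starts. At 2-fold 10 were higher, by length 6 were, and with shared values left out 0 were lower. Leaving shared values out kept 8 replication and 5 repair genes at the TSS, and 15 of each at the TES.

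Shifts toward the start at 4-fold were 0 in replication genes. At 2-fold with shared values left out, 1 of 6 replication genes and 0 of 1 repair gene shifted, too few genes to compare. Without opposite-strand starts 4 of 11 and 7 of 16 did. Shifts toward the end in replication and repair genes were 0 and 1 at 4-fold (n = 21 and 30). They were 0 and 2 with low values left out (n = 13 and 22) and 0 and 0 with shared values left out (n = 6 and 1). Without opposite-strand starts they were 0 and 2 (n = 11 and 16). Replication had 5 centred and 0 with the pseudocount. With length subtracted, repair genes had 8 shifts toward the start and 10 toward the end.

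Among named members past 1.5-fold, with length subtracted, TSS changes turned in Mcm3 (-0.35), Mcm7 (-0.0348), Orc5 (-0.72), Ercc6 (-0.56), Fancd2 (-0.58), Polq (-0.31), Prkdc (-0.37), Xrcc5 (-0.34) and Msh4 (-0.31), and TES changes in Mcm10 (-0.16), Mcm4 (-0.0804), Mcm5 (-0.37), Fen1 (-0.16), Pcna (-0.0924), Rpa2 (-0.0485), Msh6 (-0.31), Pms2 (-0.40), Xpc (-0.0611) and Polm (-0.0816). The pseudocount turned no called member. Leaving out genes reduces counts by construction; other causes were not tested. No paired analysis was possible because each group has 1 library. Leaving out a library was not run, since it would leave a condition with none. Coarse values limit precision: 43 members at the TSS and 26 at the TES have a ratio that another gene shares exactly.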
